A study of Mus musculus with 2 samples.

Results

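The 10 genes described here carry calcium across the plasma membrane of the heart muscle cell or read the calcium signal inside it, and their levels are given for the left ventricle of Lamp2 knockout and wildtype mice. They were chosen by name from the 31920 gene symbols of the deposited expression table, and all 10 had a row. They are the voltage-gated calcium channel genes Cacna1c, Cacnb2, Cacna2d1, Cacna1g and Cacna1h, the sodium-calcium exchanger gene Slc8a1, and the calmodulin-dependent protein kinase II (CaMKII) genes Camk2a, Camk2b, Camk2d and Camk2g. They were grouped by function, and the choice was made with earlier results of these data known.

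The authors sequenced polyadenylated RNA of the left ventricle, with 1 library labelled Lamp2 knockout and 1 library labelled wildtype. Both came from males (strain 129-SvEv) at an age of 10 weeks. Lamp2 encodes a membrane protein of lysosomes, and the title of the series places the mice in a study of cardiomyopathy and autophagy. The labels do not state the allele, whether its loss is limited to a cell type, or whether animals were pooled, and they name no treatment. With 1 library per genotype the spread between animals is unknown, so no difference below was tested and no p-value is given.

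The library labelled Lamp2 knockout held 8773820 reads assigned to genes and the wildtype library 8410593. Levels are reads per 1000000 reads assigned to genes (RPM), and brackets give exact 95% intervals that cover counting error only. Lamp2 itself had 986 reads in the knockout-labelled library and 990 in the wildtype library (ratio 0.955, 0.873 to 1.04). The count does not separate an intact transcript from one that lacks part of its exons, so Lamp2 does not check the label, and each direction below refers to the library as labelled. The ventricular light chain gene Myl2 was at 8322 RPM in the knockout-labelled library and 8818 RPM in the wildtype library, while the atrial genes Sln and Myl7 had at most 19 reads in either. Mitochondrially encoded transcripts made up 16.2% of reads in the knockout-labelled library and 26.5% in the wildtype library. RPM depend on that total, and the median RPM ratio of measured genes, knockout-labelled over wildtype, lay at 1.08 and not at 1.

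In a ventricular muscle cell the action potential opens L-type calcium channels in the transverse tubules, and the calcium that enters triggers a larger release from the sarcoplasmic reticulum. The pore of this channel is encoded by Cacna1c, its cytoplasmic β subunit by Cacnb2, and its extracellular α2δ subunit by Cacna2d1. The sodium-calcium exchanger, encoded by Slc8a1, is the main route by which calcium leaves the cell again. CaMKII is a many-subunit kinase that calcium-bound calmodulin switches on. It phosphorylates the channel, the release channel of the sarcoplasmic reticulum and phospholamban, and it can act on histone deacetylases that hold back gene expression.

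Of the 10 genes, 8 had a lower RPM in the knockout-labelled library than in the wildtype library and 2, Camk2d and Camk2g, had a higher one. A gene was counted as measured if it reached 5 RPM in the higher library, which 9 of the 10 did and Cacna1h did not. With 1 RPM added to both levels, a gene was called when the log2 of knockout-labelled over wildtype reached 1 or -1, a 2-fold difference that the added 1 RPM makes harder to reach for low genes. Camk2a was the 1 measured gene of the set called lower, a call that 2.37% of the 10209 measured genes received, and 0 were called higher, against 3.35% of measured genes. In either direction that is 1 of the 9, against 5.72% of all measured genes. For the 9, the log2 ratio had a median of -0.44, beside 0.11 over all measured genes. A log2 ratio below 0 was found for 7 of the 9, against 38.8% of all measured genes, and one above 0 for 2, against 61.2%. For the same 7 the counting interval of the ratio lay below 1, against 16.8% of measured genes, and it lay above 1 for 0, against 35%. Cacna1g passed the 5 RPM minimum through the wildtype library alone, so its place among the 9 was tied to its being higher there.

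**Figure D1:**
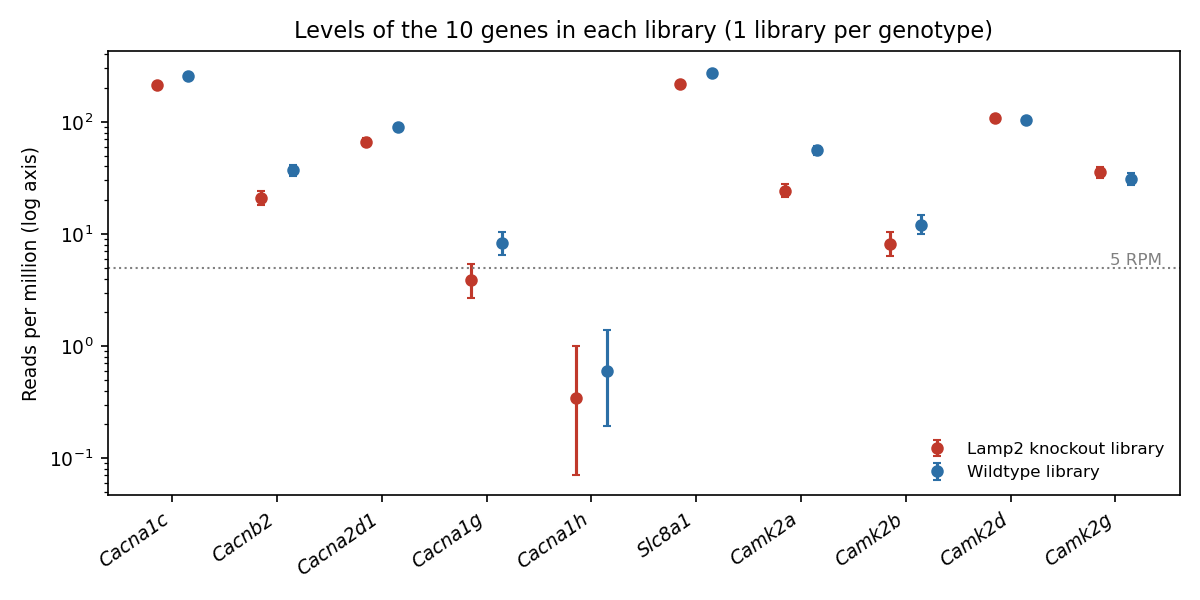
Level of each of the 10 genes in RPM (log axis) in the Lamp2 knockout library (red, left) and the wildtype library (blue, right); bars are exact Poisson 95% counting intervals and the dotted line marks 5 RPM. The intervals of the libraries stand well apart for Cacnb2 and Camk2a and overlap for Camk2b, Camk2d, Camk2g and Cacna1h.

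The promoters printed here are those of Slc8a1 and Cacnb2, 2 of the genes with lower levels in the knockout-labelled library, and of Camk2d, the main cardiac CaMKII gene, whose levels in the libraries lay within counting error of each other. They are RefSeq sequences of build GRCm38.p6 and run from 250 bases before to 50 bases after an annotated transcript start. Capitals mark the GC box GGGCGG and the GATA core GATAA on either strand. Slc8a1 lies on the minus strand with its window at chr17:81738338-81738637, and Camk2d on the plus strand at chr3:126596701-126597000. Cacnb2, on the plus strand, has 2 annotated starts, upstream at chr2:14604056-14604355 and downstream at chr2:14823842-14824141, whose products differ at the N terminus and whose reads the gene count adds together.
Slc8a1: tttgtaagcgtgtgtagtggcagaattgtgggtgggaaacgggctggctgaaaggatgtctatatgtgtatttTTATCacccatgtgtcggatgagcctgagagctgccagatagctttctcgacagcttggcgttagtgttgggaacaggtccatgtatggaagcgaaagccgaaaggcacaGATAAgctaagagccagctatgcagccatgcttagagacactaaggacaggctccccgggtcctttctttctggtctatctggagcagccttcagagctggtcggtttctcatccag
Cacnb2 upstream: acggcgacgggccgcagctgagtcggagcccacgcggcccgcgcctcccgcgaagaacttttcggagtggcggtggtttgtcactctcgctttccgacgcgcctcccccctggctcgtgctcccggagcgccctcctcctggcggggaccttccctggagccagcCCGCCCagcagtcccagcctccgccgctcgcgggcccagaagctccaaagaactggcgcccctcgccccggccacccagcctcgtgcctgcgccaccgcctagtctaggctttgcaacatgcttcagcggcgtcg
Cacnb2 downstream: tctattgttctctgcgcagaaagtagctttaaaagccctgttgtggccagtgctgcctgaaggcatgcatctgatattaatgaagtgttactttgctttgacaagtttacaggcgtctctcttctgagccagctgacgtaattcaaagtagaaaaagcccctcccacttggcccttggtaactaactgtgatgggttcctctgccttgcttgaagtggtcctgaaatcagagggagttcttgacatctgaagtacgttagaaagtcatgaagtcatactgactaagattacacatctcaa
Camk2d: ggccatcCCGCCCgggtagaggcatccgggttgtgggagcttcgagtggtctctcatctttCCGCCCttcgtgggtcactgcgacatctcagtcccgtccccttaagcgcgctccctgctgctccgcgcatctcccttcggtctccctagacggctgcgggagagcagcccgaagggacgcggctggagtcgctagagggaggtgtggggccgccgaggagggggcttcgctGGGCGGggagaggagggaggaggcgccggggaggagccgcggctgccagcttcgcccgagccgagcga

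The Slc8a1 window held 2 GATA cores and 0 GC boxes. It was 50.7% G or C with 9 CpG dinucleotides, near the medians of 52.7% and 7 over all 32851 promoters of the table. The Camk2d window was of the other kind, 70.3% G or C with 31 CpG dinucleotides and 3 GC boxes. The starts of Cacnb2 differed from each other, with 35 CpG dinucleotides and 1 GC box upstream and 4 CpG dinucleotides and 0 GC boxes downstream. A GC box stood in 35.7% of all promoters and a GATA core in 25.4%. The TATA box TATAAA, found in 13.6% of all promoters, and the E box CACGTG, found in 7.15% and recognised by basic helix-loop-helix factors, were absent from these 4 windows. Sequences were matched for 6 of the 10 genes, with 9 starts in all, and Cacna1c has 3 of them. Windows on chromosome 18, where Camk2a lies, were left out of this match. The match of a motif is a description of letters and was not related to the levels.

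Cacna1c had the most reads of the calcium channel genes. It lies on the minus strand of chromosome 6 from 118592296 to 119196409 (mm10, as are all deposited positions). It had 1854 reads in the knockout-labelled library and 2137 in the wildtype library, or 211 RPM (202 to 221) against 254 RPM (243 to 265). The ratio was 0.832 (0.781 to 0.885), a small deficit that exceeded counting error. Of all measured genes, 18.7% had a lower log2 ratio. The opposite-strand gene Dcp1b overlaps the row and had 26 reads in the knockout-labelled library and 13 in the wildtype library.

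Of the accessory subunits of the L-type channel, Cacnb2 had a ratio whose interval lay below that of the pore gene, while the interval of Cacna2d1 overlapped it. Cacnb2, whose product carries the pore to the membrane and sets its gating, lies on chromosome 2 from 14604306 to 14987908. It had 184 reads in the knockout-labelled library and 310 in the wildtype library, which are 20.97 RPM (18.1 to 24.2) against 36.9 RPM (32.9 to 41.2). Its ratio of 0.569 (0.472 to 0.685) did not reach the 2-fold rule, and 4.21% of measured genes had a lower log2 ratio. Cacna2d1, whose product raises the number of channels at the surface and binds gabapentin, lies on chromosome 5 from 15934691 to 16374511. It stood at 65.6 RPM (60.4 to 71.2) in the knockout-labelled library, from 576 reads, and at 89.4 RPM (83.1 to 96.0) in the wildtype library, from 752 reads. The Cacna2d1 ratio was 0.734 (0.658 to 0.820).

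Because RPM depend on the total, the subunits were also set against each other within a library, which no scaling between libraries can alter. Cacnb2 made up 9.03% (7.82 to 10.4) of the reads of Cacnb2 and Cacna1c together in the knockout-labelled library and 12.7% (11.4 to 14.1) in the wildtype library. These intervals did not overlap, so fewer Cacnb2 reads were counted per Cacna1c read in the knockout-labelled library beyond counting error. Cacna2d1 made up 23.7% (22.0 to 25.4) of the reads of Cacna2d1 and Cacna1c in the knockout-labelled library and 26.0% (24.4 to 27.7) in the wildtype library, and these intervals overlapped. The pairs were chosen after the levels were seen.

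The T-type channels open at more negative voltages than the L-type channel and are known from pacemaker cells and from the fetal ventricle. Cacna1g, on chromosome 11 from 94408391 to 94474198, had 34 reads in the knockout-labelled library and 70 in the wildtype library, or 3.88 RPM (2.68 to 5.42) against 8.32 RPM (6.49 to 10.5). Its ratio was 0.466 (0.300 to 0.711), and its log2 ratio of -0.94 with the added 1 RPM was just short of the call. With 0.1 RPM added, or under each of the 3 rescalings described below, Cacna1g was called lower. Cacna1h, on chromosome 17 from 25374287 to 25433783, had 3 reads in the knockout-labelled library and 5 in the wildtype library. Its ratio of 0.575 had an interval of 0.0893 to 2.96, so no difference was detectable at this depth.

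Markers of the cardiac conduction system, in which T-type channels are known to be expressed, were read beside Cacna1g. Their summed level over 6 genes was 74.2 RPM in the knockout-labelled library and 81.1 RPM in the wildtype library. The pacemaker channel gene Hcn4 had 12 reads in the knockout-labelled library and 32 in the wildtype library, and Cntn2, a marker of Purkinje cells, had 4 reads in the knockout-labelled library and 16 in the wildtype library. Isl1 had 0 reads in both. Tbx3, the highest of this list, had a ratio of 0.828. The part of these cells in the Cacna1g deficit was not tested, and in RNA of a whole tissue fewer cells of a type and less RNA per cell cannot be told apart.

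The make-up of the pore-forming genes was dominated by Cacna1c in both libraries. Among the reads of all 10 Cacna1 genes, Cacna1c took 94.1% (93.0 to 95.1) of 1970 in the knockout-labelled library and 89.7% (88.4 to 90.9) of 2383 in the wildtype library. Cacna1g took 1.73% (1.20 to 2.40) in the knockout-labelled library and 2.94% (2.30 to 3.70) in the wildtype library. The intervals of the Cacna1c share did not overlap, while those of Cacna1g did. Such shares add up to the whole, and the level of Cacna1c itself was lower in the knockout-labelled library (ratio 0.832). Per length of the union of exons, the Cacna1g share was 3.35% in the knockout-labelled library and 5.40% in the wildtype library. The summed level of the 10 genes was 225 RPM in the knockout-labelled library and 283 RPM in the wildtype library, a ratio of 0.792 (0.746 to 0.842).

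Slc8a1 lies on the minus strand of chromosome 17 from 81266210 to 81738377, and its promoter is the first of those printed above. It had 1897 reads in the knockout-labelled library and 2298 in the wildtype library. The level was 216 RPM (207 to 226) in the knockout-labelled library and 273 RPM (262 to 285) in the wildtype library, and the ratio was 0.791 (0.744 to 0.841). The deficit was beyond counting error and of much the same size as that of Cacna1c. Set against Atp2a2, the gene of the pump that returns calcium to the sarcoplasmic reticulum and so competes with the exchanger, Slc8a1 made up 4.18% (3.99 to 4.36) of their joint reads in the knockout-labelled library and 4.72% (4.53 to 4.91) in the wildtype library. These intervals did not overlap. The Atp2a2 ratio was 0.899 (0.887 to 0.911), and this pair too was chosen after the levels were seen.

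**Figure D2:**
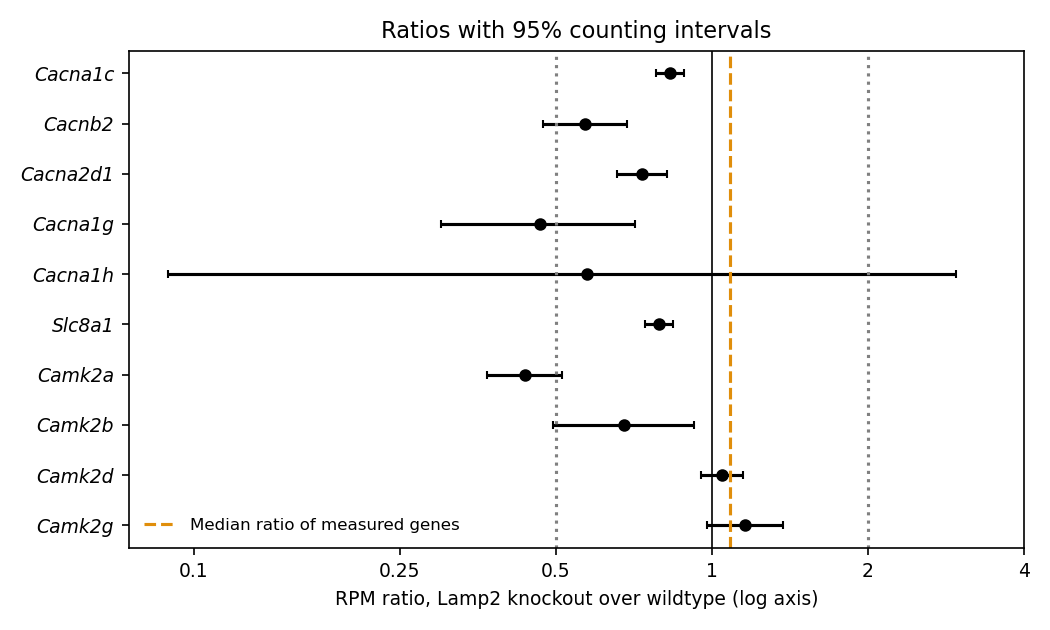
Ratio of RPM, Lamp2 knockout over wildtype (log axis), for each of the 10 genes with exact conditional binomial 95% counting intervals; the solid line marks 1, dotted lines mark 0.5 and 2, and the dashed line is the median ratio of measured genes at 1.08. Camk2a and Cacna1g lie left of 0.5, and Camk2d and Camk2g are the 2 genes to the right of 1.

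The 4 CaMKII genes did not move together. Camk2a, on chromosome 18 from 60925632 to 60988152, had the lowest ratio of the 10 genes. It is best known as the main isoform gene of forebrain neurons, and in muscle its locus also gives a protein without the kinase domain, αKAP, that anchors CaMKII to membranes. Camk2a had 214 reads in the knockout-labelled library and 471 in the wildtype library, or 24.4 RPM (21.2 to 27.9) against 56.0 RPM (51.1 to 61.3). The ratio was 0.436 (0.369 to 0.513), and 139 of the 10209 measured genes, 1.36%, had a lower log2 ratio than its -1.17. The gene count does not separate the kinase from αKAP.

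Camk2b, on the minus strand of chromosome 11 from 5969666 to 6065748, is the isoform gene whose product binds actin filaments. Its level was 8.21 RPM (6.42 to 10.3) in the knockout-labelled library, from 72 reads, and 12.1 RPM (9.89 to 14.7) in the wildtype library, from 102 reads. The ratio was 0.677 (0.493 to 0.924), whose interval ended short of 1, although the intervals of the levels overlapped.

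Camk2d, on chromosome 3 from 126596973 to 126845054, encodes the main CaMKII of the heart, whose splice forms differ in a nuclear localisation signal. It had 952 reads in the knockout-labelled library and 873 in the wildtype library, or 109 RPM (102 to 116) against 104 RPM (97.0 to 111). The ratio of 1.05 (0.953 to 1.15) did not differ from 1 beyond counting error, and it was 0.964, 0.962 and 0.920 under the rescalings, so its direction depended on the scaling. Camk2g, on chromosome 14 from 20734875 to 20794088, encodes the other CaMKII known from heart muscle. It stood at 35.7 RPM (31.8 to 39.9) in the knockout-labelled library, from 313 reads, and at 30.8 RPM (27.2 to 34.8) in the wildtype library, from 259 reads. Its ratio of 1.16 (0.979 to 1.37) was likewise within counting error of 1, and it was between 1.02 and 1.07 under the rescalings.

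Within each library the CaMKII reads were also taken as shares. Camk2a took 13.8% (12.1 to 15.6) of 1551 CaMKII reads in the knockout-labelled library and 27.6% (25.5 to 29.8) of 1705 in the wildtype library. Camk2d took 61.4% (58.9 to 63.8) in the knockout-labelled library and 51.2% (48.8 to 53.6) in the wildtype library. Camk2g took 20.2% (18.2 to 22.3) in the knockout-labelled library and 15.2% (13.5 to 17.0) in the wildtype library. The intervals were apart for these 3 genes, and those of Camk2b, at 4.64% (3.65 to 5.81) in the knockout-labelled library and 5.98% (4.90 to 7.22) in the wildtype library, overlapped. The shares of a library add up to the whole, so a lower share of Camk2a alone raises the others. Divided by the union of annotated exons, the shares of Camk2a were 22.4% in the knockout-labelled library and 41.1% in the wildtype library, and those of Camk2d 33.1% and 25.3% in the same libraries.

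Summed over the 4 genes, CaMKII stood at 177 RPM in the knockout-labelled library and 203 RPM in the wildtype library, a ratio of 0.872 (0.814 to 0.935). Without Camk2a the other 3 genes summed to 152 RPM in the knockout-labelled library and 147 RPM in the wildtype library, and the ratio was 1.04 (0.961 to 1.12). Under the rescalings that ratio was between 0.914 and 0.958.

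**Figure D3:**
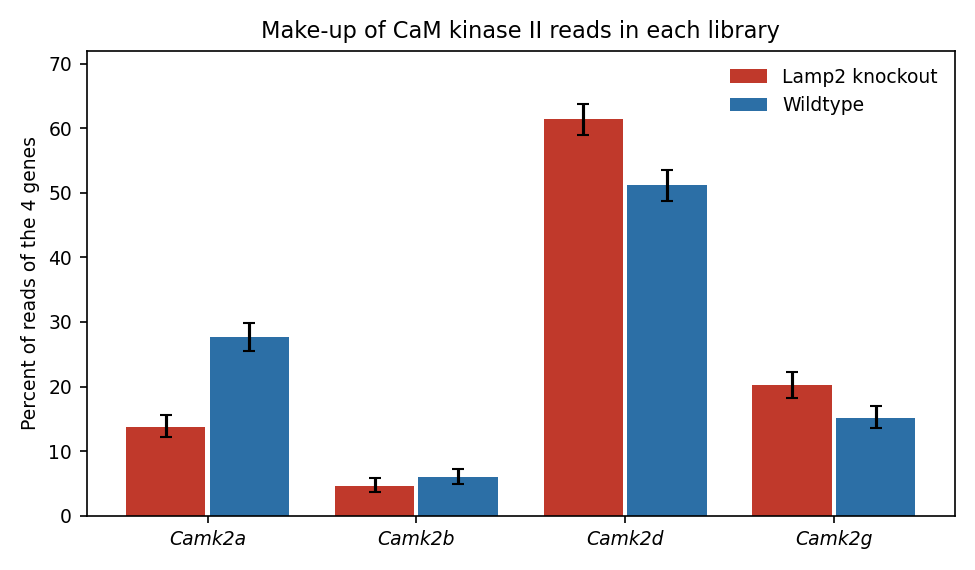
Percent of the reads of the 4 CaMKII genes that each gene took, in the Lamp2 knockout library (red, left) and the wildtype library (blue, right), with exact binomial 95% intervals. Camk2a takes 13.8% against 27.6%, and Camk2d 61.4% against 51.2%.

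Since Camk2a is abundant in neurons, neuronal markers were read beside it. Of 8 such genes, Snap25 and Syt1 had 0 reads in both libraries, Rbfox3 had 0 reads in the knockout-labelled library and 3 in the wildtype library, and Stmn2 was the highest at 5.93 RPM in the knockout-labelled library and 7.37 RPM in the wildtype library. The list summed to 6.61 RPM in the knockout-labelled library and 8.68 RPM in the wildtype library, and the part of nerve cells in the Camk2a deficit was not tested. Fast skeletal muscle markers summed to 37.7 RPM in both, of which Myh2 was the highest at 23.0 RPM in the knockout-labelled library and 23.5 RPM in the wildtype library. Myog, the skeletal myogenic factor gene of that list, had 0 reads in both.

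Other cell types were read beside the channel and exchanger genes in the same way. Cardiomyocyte markers summed over 8 genes to 53149 RPM in the knockout-labelled library and 53509 RPM in the wildtype library, with Myh6 the highest at a ratio of 0.953. The 10 genes described here summed to 695 RPM in the knockout-labelled library and 865 RPM in the wildtype library, a ratio of 0.803 (0.776 to 0.831). Smooth muscle markers, from cells that also use Cacna1c, summed over 4 genes to 65.2 RPM in the knockout-labelled library and 93.0 RPM in the wildtype library, with Acta2 at a ratio of 0.714. Endothelial markers, led by Cdh5, summed to 436 RPM in the knockout-labelled library and 455 RPM in the wildtype library. Fibroblast markers summed to 455 RPM in the knockout-labelled library and 505 RPM in the wildtype library. Dcn, the highest of them, was not called and had a ratio of 1.04 (0.989 to 1.09). Of the 6 fibroblast markers, 3 were called lower, a call that 2.37% of all measured genes received. Of those 3, Lum passed the 5 RPM minimum through the wildtype library alone. Macrophage markers, led by Csf1r, summed to 84.9 RPM in the knockout-labelled library and 58.0 RPM in the wildtype library. The part of these cells in the levels of the 10 genes was not tested.

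Levels of different genes can be compared only per length of transcript, and the annotated length of these genes depends on how it is taken. With the union of all annotated exons of GENCODE M21, Slc8a1 came first in both libraries, at 11.5 RPM per kilobase in the knockout-labelled library and 14.5 in the wildtype library. Cacna1c followed at 9.97 RPM per kilobase in the knockout-labelled library and 11.99 in the wildtype library. Camk2d, whose annotated exons join to 22493 bases against 5524 in its longest transcript, was in the fifth place in the knockout-labelled library and the sixth in the wildtype library, at 4.82 RPM per kilobase in the knockout-labelled library and 4.61 in the wildtype library. By this length Camk2a was at 3.27 RPM per kilobase in the knockout-labelled library, below Camk2d, and at 7.502 in the wildtype library, above Camk2d.

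With the longest annotated transcript, Camk2d was first at 19.6 RPM per kilobase in the knockout-labelled library, followed by Cacna1c at 16.1 and Slc8a1 at 11.7. In the wildtype library Cacna1c at 19.3 and Camk2d at 18.8 had overlapping intervals, and Slc8a1 followed at 14.8 RPM per kilobase. Camk2a stood in the sixth place in the knockout-labelled library at 4.91 RPM per kilobase, behind Camk2g at 9.63 and Cacna2d1 at 8.83. In the wildtype library Camk2a was in the fifth place at 11.3 RPM per kilobase, ahead of Camk2g at 8.32 and with an interval that overlapped that of Cacna2d1 at 12.02. Cacnb2, Camk2b, Cacna1g and Cacna1h took the last 4 places, in this order, by both lengths and in both libraries. Their intervals did not overlap each other, and Cacnb2 overlapped the gene ahead of it by the longest transcript alone, Camk2a in the knockout-labelled library and Camk2g in the wildtype library.

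The scaling of the libraries shifts all 10 genes alike. Division by the median ratio of measured genes lowers a log2 ratio by 0.12, a trimmed mean of log ratios by the same 0.12, and a total that leaves out mitochondrial transcripts and the 10 most abundant other genes by 0.18. Under each of these, 9 of the 10 ratios were below 1, Camk2d having crossed, and the counting interval lay below 1 for the same number of genes as on the deposited scale, 7. Camk2a and Cacna1g were then called lower, with Camk2a ratios of 0.402, 0.401 and 0.383. Of all measured genes, 3.05%, 3.07% and 3.55% were called lower under the rescalings in the same order, against 2.37% as deposited. Their median log2 ratio moved from 0.11 to -0.005, -0.007 and -0.07. More of all genes thus lay below 1 than on the deposited scale, and that share was not counted.

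The other voltage-gated calcium channel subunits were mostly too low to read. Of 21 such genes, 3 were measured, 2 were called lower and 0 higher, against 2.37% and 3.35% of all measured genes. Cacna1a, the P/Q-type pore known from nerve terminals, had a ratio of 0.425 (0.277 to 0.640) at 3.99 RPM in the knockout-labelled library against 9.39 RPM in the wildtype library. Cacna1s, the L-type pore of skeletal muscle, had a ratio of 0.415 (0.265 to 0.636) at 3.65 RPM in the knockout-labelled library against 8.80 RPM in the wildtype library. Both passed the 5 RPM minimum through the wildtype library alone. Cacnb1, the β subunit known from skeletal muscle, was at 10.4 RPM in the knockout-labelled library and 8.68 RPM in the wildtype library (ratio 1.19, 0.869 to 1.65).

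Among 13 regulators of the L-type channel and scaffolds of the junction at which it sits, 8 were measured. Of these, 2 were called lower and 0 higher, against 2.37% and 3.35% of all measured genes. Their median log2 ratio was -0.14, beside 0.11 over all measured genes. The called genes were Rrad and Rem1, which encode RGK-family small GTPases that bind β subunits and hold down L-type current. Rrad, encoding Rad, had 1591 reads in the knockout-labelled library and 3125 in the wildtype library, or 181 RPM against 372 RPM, and a ratio of 0.488 (0.459 to 0.519). Rem1 had 17 reads in the knockout-labelled library and 51 in the wildtype library (ratio 0.320, 0.173 to 0.563), and passed the minimum through the wildtype library alone. Gem, of the same family and named after its value was known, had a ratio of 1.27 (0.864 to 1.88). Jph2, whose product ties the transverse tubule to the sarcoplasmic reticulum, had a ratio of 0.707 (0.675 to 0.741), and Sri, encoding the calcium sensor sorcin, had 1.56 (1.38 to 1.76).

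Of 13 other exchangers and pumps of the cell, 8 were measured and 0 were called in either direction, against 5.72% of all measured genes. A log2 ratio below 0 was found for 7 of the 8, against 38.8%, and the median was -0.16, beside 0.11. Fxyd1, encoding phospholemman, which restrains the exchanger, was the 1 gene of this list above 0, at 1060 RPM in the knockout-labelled library and 803 RPM in the wildtype library (ratio 1.32, 1.28 to 1.36). The plasma membrane calcium pump gene Atp2b4 had a ratio of 0.702 (0.540 to 0.911).

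The store-operated and TRP channel genes lay nearer to 1, with 7 of 11 measured, 0 called and a median log2 ratio of -0.01. Over all measured genes 5.72% were called in either direction and the median was 0.11. The reticulum calcium sensor genes Stim1 and Stim2 had ratios of 1.37 (1.08 to 1.74) and 1.38 (1.19 to 1.61), and under the rescalings these were between 1.21 and 1.27. Trpc1, measured through the knockout-labelled library alone, had a ratio of 1.24 (0.775 to 2.001), and Trpm4, a calcium-activated cation channel gene, had 0.834 (0.649 to 1.07).

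Of 14 genes of calmodulin, of other CaM kinases and of CaMKII inhibitors, 7 were measured and 0 were called, against 5.72% of all measured genes. The median log2 ratio was 0.16, beside 0.11 over all measured genes, and became -0.02 under the last of the 3 rescalings. Camkk2, a kinase that activates other CaM kinases, had a ratio of 1.42 (1.08 to 1.86), and Camk1, one of its targets, had 1.23 (1.07 to 1.40). An interval above 1, as both had, was found for 35% of all measured genes. Under the rescalings the ratio was between 1.25 and 1.31 for Camkk2 and between 1.08 and 1.13 for Camk1. Camk1d had 28 reads in the knockout-labelled library and 44 in the wildtype library, with a ratio of 0.610 (0.366 to 1.002), and passed the minimum through the wildtype library alone.

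Among 11 substrates and effectors of CaMKII, all 11 were measured. Of these, 1 was called higher and 1 lower, against 3.35% and 2.37% of all measured genes. The median log2 ratio of the 11 was -0.15, beside 0.11 over all measured genes. Hdac9, a class IIa histone deacetylase gene that binds MEF2 factors, was at 9.92 RPM in the knockout-labelled library and 21.04 RPM in the wildtype library (ratio 0.471, 0.360 to 0.612), and Hdac4, of the same class, had a ratio of 0.641 (0.510 to 0.802). Hdac5, also of this class and named after its value was known, had a ratio of 1.05 (0.952 to 1.16), within counting error of 1. Pln, encoding phospholamban, was at 1574 RPM in the knockout-labelled library and 2647 RPM in the wildtype library, with a ratio of 0.595. Ryr2, the release channel that faces the L-type channel and is named after its value was known, had a ratio of 1.42 (1.39 to 1.45), on the other side of 1 from Cacna1c.

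**Figure D4:**
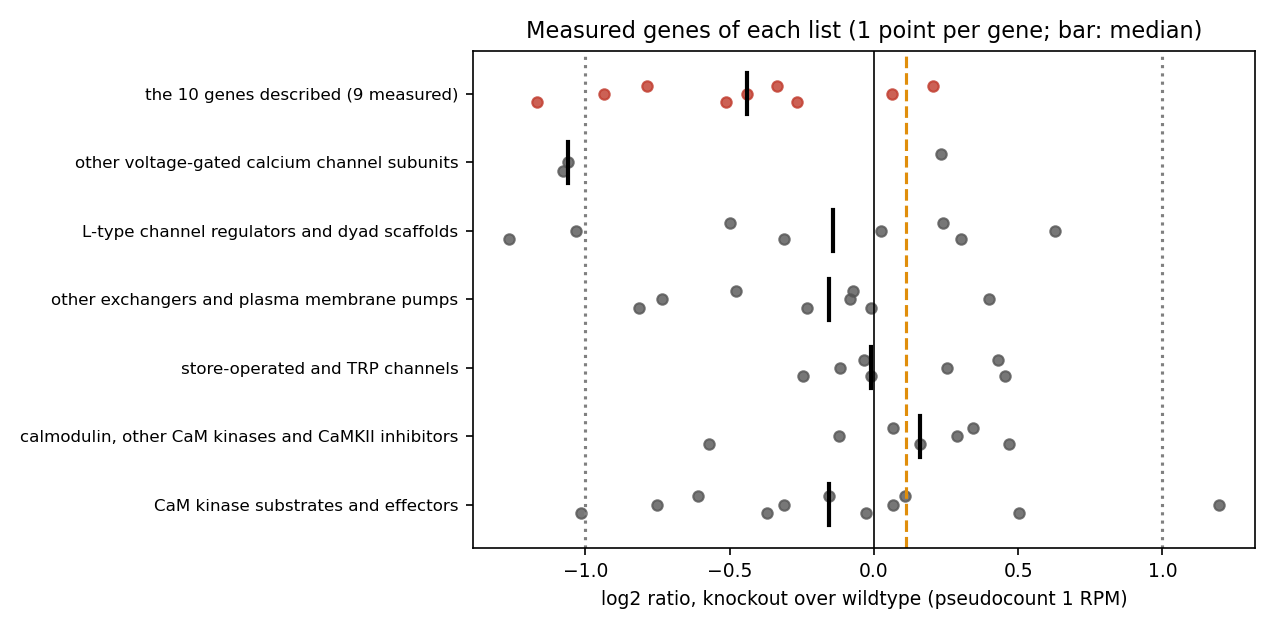
log2 ratio, Lamp2 knockout over wildtype with 1 RPM added, of the measured genes among the 10 described (red) and of each pathway list (grey), 1 point per gene with a bar at the list's median; the dashed line is the median of all measured genes at 0.11 and dotted lines mark the 2-fold rule. The median of the 9 measured genes described lies at -0.44, left of those of the other lists except the 3 measured channel subunits.

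Shared sequence between the genes was checked on the GENCODE M21 transcripts in windows of 50 bases. None of the 10 genes shared such a window with another of the 10, and the share found in any other gene was at most 5.90%, for Cacnb2. The overlapping rows of the deposited table held few reads, at most 26, and the row that overlaps Cacna1h had 0. Neither the read length nor the use of strand in counting was stated.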

How the data were processed

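The deposited table covers both libraries. Its columns, per the file headers, are whole-number read counts and normalized values for each gene. The deposited RPM equal the count divided by the library's total, times 1000000, with a largest difference of 5e-05. The authors' fold (a ratio) and the authors' p-value, also in the deposited table, have no stated method and were not used. The fold matched the ratios given here within 0.0047 for the 9 genes that have one. The submitters' processing notes name STAR, mm10 and GRCm38; the counting tool and annotation were not stated.

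Deposited starts count from 0 and are printed plus 1: the start plus 1 matched a RefSeq transcript start for 68.9% of 3629 plus-strand genes, and the start as deposited for 0.441%. Groups follow the genotype labels. Levels carry exact Poisson intervals, ratios conditional binomial (Clopper-Pearson) intervals and shares exact binomial intervals, at 95%. The reads carry no molecular identifiers, so PCR copies count as reads and intervals cover counting error only. For a gene at 0 reads the one-sided 95% upper limit is 3 reads, or 0.342 RPM in the knockout-labelled and 0.357 RPM in the wildtype library, which is lower than the upper end of the two-sided intervals used for levels. The genes, lists and rules were chosen with earlier results of these data known. Named are all 10 genes, Lamp2, the highest marker of each list, and of each pathway list the called genes and up to 4 with the largest log2 ratio. Some genes this rule would name, and their values, are not reported here. Other genes named were chosen for their role or after their values were seen. Alternatives were 0.1 or 5 RPM added in place of 1, a minimum of 1 or 20 RPM or no minimum, 1.5-fold and 3-fold rules, 3 rescalings (the trimmed mean left out 30% of ratios and 5% of levels at each end), an added binomial test of the reads, and 2 transcript lengths. Python 3.11.15, numpy 2.4.6, pandas 2.3.3, scipy 1.17.1 and matplotlib 3.10.9 were used.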

Additional observations from a re-analysis of the deposited data

How the results depend on the processing

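No paired analysis was possible because each genotype has 1 library, and for the same reason no replicate could be left out. Under every alternative run, 0 of the genes described were called higher, against 0.852% (3-fold rule) to 12.8% (1.5-fold rule) of all measured genes. The count called lower was 1 as reported and under 5 RPM added, minimums of 1 and 20 RPM, no filter and the added binomial test. Over all genes that passed the minimum in use, these settings called 0.735% to 2.95% lower. The count was 2 with 0.1 RPM added and under each of the 3 rescalings, where Cacna1g joined Camk2a. Those settings called 2.91% to 3.55% of all measured genes lower. A 1.5-fold rule gave 3, where Cacnb2 joined, against 7.30% of all measured genes, and a 3-fold rule gave 0, against 0.451%. The median log2 ratio of the measured genes stayed between -0.34 and -0.56 under the other alternatives and was -0.62 with the total that leaves out mitochondrial transcripts and the 10 most abundant other genes. Of 50 recomputed log2 ratios of single genes, 42 stayed within the counting interval of the main ratio and 8 moved, each downward under a rescaling, and Camk2a, the called gene, kept its sign in each. Camk2d changed sign under each rescaling.

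The shares of CaMKII reads depend on length. Per kilobase of the union of exons, the knockout-labelled and wildtype shares were 22.4% and 41.1% for Camk2a, 6.17% and 7.28% for Camk2b, 33.1% and 25.3% for Camk2d, and 38.3% and 26.4% for Camk2g. Per kilobase of the longest transcript, they were 54.3% and 45.5% for Camk2d and 26.6% and 20.1% for Camk2g, with Camk2a and Camk2b within their intervals. The direction between libraries was the same by each length. For Camk2a and Camk2g, the lowest and highest ratios of the CaMKII genes, it had to be, since a length divides both libraries alike. Per kilobase of the union of exons, Cacna1c took 87.4% of the pore-forming reads in the knockout-labelled library and 78.9% in the wildtype library, and Cacna1g 3.35% and 5.40% in the same libraries. The order of levels by the longest transcript differed from that by the union for 4 genes in the knockout-labelled library and 5 in the wildtype library. Depth limits Cacna1h, at 3 reads in the knockout-labelled library and 5 in the wildtype library.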
